A study of Mus musculus with 228 samples.

Results

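The transcription factor p53, encoded by Trp53, and 9 of the genes that p53 is known to switch on were followed in single neurons of the adult mouse hippocampus that had received adeno-associated virus (AAV). The 10 genes are Trp53, Cdkn1a, Mdm2, Bax, Bbc3, Ccng1, Phlda3, Eda2r, Zmat3 and Trp53inp1. All 10 were found among the 22870 genes of the authors' count table. The rule that chose them names the genes and gives no measured value, but it was made with earlier results of these data known.

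The neurons came from the ventral hippocampus of mice 3 to 4 months old, and each was drawn into a patch pipette from an acute slice 1 month after the virus was injected. Calb1-Cre mice gave the granule cells (GC), and Nex-Cre mice gave the medial CA1 pyramidal cells (CA1). Ascl4 GC (51 cells) and Ascl4 CA1 (45 cells) received AAV-Ascl4, which carries a basic helix-loop-helix transcription factor, together with a Cre-dependent AAV-EGFP. EGFP GC (47 cells) and EGFP CA1 (46 cells) received the Cre-dependent AAV-EGFP alone, in a matched amount. Every mouse therefore had an AAV and a Cre transgene, no group was without virus, and an effect of AAV delivery itself cannot be read from these groups. Cell type and Cre line cannot be told apart, nor can Ascl4 and the second virus. Since no label says which mouse a cell came from, a group is 1 sample here, the groups were compared without a test, and the spread between mice is unknown.

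In most cells p53 is made all the time and is kept low because Mdm2, an E3 ubiquitin ligase, marks it for destruction. DNA damage and other stresses release it, mainly by changing the protein and not its mRNA, and it then binds DNA and raises the transcription of genes for cell cycle arrest (Cdkn1a, Ccng1), for cell death (Bax, Bbc3) and for its own restraint (Mdm2). AAV genomes are single-stranded DNA with hairpin ends, and p53-dependent responses to them have been described in dividing cells. Adult neurons do not divide, and there Cdkn1a mRNA is also known to follow stimuli other than p53.

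Among the 10 genes, the widest gap between Ascl4 and EGFP cells in the share of cells above a set level concerned Cdkn1a in GC. Cdkn1a encodes p21, an inhibitor of cyclin-dependent kinases. Of 51 Ascl4 GC cells 18 had at least 10 counts of it per 1000000 gene reads (CPM), against 6 of 47 EGFP GC cells. For the other 9 genes the share of cells at 10 CPM differed by at most 10.1 percentage points between Ascl4 and EGFP GC cells, in either direction. In CA1, 8 of 45 cells with Ascl4 and 4 of 46 with EGFP alone had this much Cdkn1a, while its summed level was 30.7 CPM with Ascl4 and 32.8 CPM with EGFP alone. Of the 18 Ascl4 GC cells with Cdkn1a, 11 had at least 3 of 15 microglial marker genes at 10 CPM, as did 17 of all 51 Ascl4 GC cells.

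A p53 binding site is built from paired 10-base half-sites around a core of C, 2 bases that are A or T, then G. To show which of the genes carry such sequence at their start, windows from 250 bases before to 50 bases after each RefSeq transcript start (GRCm38.p6) were searched on both strands, since both motifs read the same on either strand. Of the 10 genes, 8 matched, with 11 windows, and Zmat3 and Trp53inp1 did not. The p53 half-site consensus was present in 5 of the 11 windows and in 8.36% of 32851 windows of all genes. The pair CATG, 6 bases of any kind, CATG, can overlap the half-site motif. It was present in 1 of the 11 windows, a Cdkn1a window, and in 0.712% of the windows of all genes. Window 2 of Cdkn1a (chr17:29093519-29093818, plus strand) held neither motif. The Cdkn1a window with the pair is shown whole because Cdkn1a had the widest gap in shares of cells among the 10 genes. The window shown spans chr17:29090729-29091028 on the plus strand. Its capitals mark the CATG pair with the bases between, at chr17:29090928-29090947 counted with 3 flanking bases on each side.
Cdkn1a: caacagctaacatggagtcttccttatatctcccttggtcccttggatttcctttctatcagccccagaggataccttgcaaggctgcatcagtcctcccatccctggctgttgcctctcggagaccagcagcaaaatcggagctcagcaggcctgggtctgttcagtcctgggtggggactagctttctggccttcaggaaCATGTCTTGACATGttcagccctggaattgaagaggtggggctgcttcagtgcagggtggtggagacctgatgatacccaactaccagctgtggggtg
The half-sites of the windows are shown with 5 bases before and after each, on the strand of the gene, with the core in capitals, so that the genes can be compared.
Trp53 half-site (chr11:69580279-69580298, plus strand): cggaaggaCTTGcccttact
Cdkn1a first half-site (chr17:29090901-29090920, plus strand): ggtggggaCTAGctttctgg
Cdkn1a second half-site (chr17:29090923-29090942, plus strand): ttcaggaaCATGtcttgaca
Mdm2 half-site (chr10:117710930-117710949, minus strand): gataggaaCTTGcctagcga
Bax half-site (chr7:45467085-45467104, minus strand): atcccaggCAAGctttgaac
Ccng1 half-site (chr11:40755457-40755476, minus strand): tgcccgggCAAGccttggca
Of the genes with a half-site, Cdkn1a alone had the CATG pair, and the windows of Bbc3, Phlda3 and Eda2r held neither motif. A match describes the letters of these windows, and sites elsewhere in a gene, such as the p53 response element in the first intron of Mdm2, lie outside them.

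All values below rest on counts of reads assigned to genes, which the authors deposited for the cells that passed their quality control. A cell's CPM is its count divided by its gene reads and multiplied by 1000000. A group's pooled CPM is the reads of all its cells, summed and divided by the summed gene reads. Ratios are log2 values of pooled CPM with 1 CPM added to each side, which understates the change of weakly expressed genes, and a gene is called higher or lower at 1.5-fold (0.585 on the log2 scale). Intervals are 95% exact Poisson intervals for CPM and 95% exact Clopper-Pearson intervals for shares of cells. Where no cell reached the level, the share that a count of 0 allows is given as 3 cells divided by the cells of the group. The Poisson intervals describe the counting of reads and nothing more, because amplified reads that carry no molecular identifier do not stand for separate molecules. The intervals for shares treat cells as independent draws and leave out the spread between mice.

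The cells held 1077532 to 25442664 gene reads each, with medians of 6832 to 6975 genes with a read across the groups. Ascl4 RNA was at 14111 CPM in Ascl4 GC and 47.2 CPM in EGFP GC cells, and at 9395 CPM in Ascl4 CA1 and 32.6 CPM in EGFP CA1 cells. The 6 granule cell markers summed to 2445 and 3998 CPM in Ascl4 and EGFP GC cells and to 1176 and 622 CPM in Ascl4 and EGFP CA1 cells. The 6 CA1 markers summed to 793 and 1211 CPM in Ascl4 and EGFP CA1 cells and to 21.4 and 62.8 CPM in Ascl4 and EGFP GC cells. Each list was thus higher in its own cell type than in the other. Ascl4 CA1 cells, however, had more of the granule cell list (1176 CPM) than of the CA1 list (793 CPM). The 15 microglia markers summed to 1644 and 761 CPM in Ascl4 and EGFP GC cells and to 4645 and 2179 CPM in Ascl4 and EGFP CA1 cells, with none of the 15 at 0 in a group. The median cell's sum was 162.8 CPM in Ascl4 GC and 31.6 CPM in EGFP GC, and 1072 CPM in Ascl4 CA1 and 804 CPM in EGFP CA1. At least 3 of these 15 reached 10 CPM in 17 of 51 Ascl4 GC, 8 of 47 EGFP GC, 34 of 45 Ascl4 CA1 and 25 of 46 EGFP CA1 cells. The 10 oligodendrocyte lineage markers summed to 7581 CPM in Ascl4 GC and 613 CPM in EGFP GC cells, and to 865 CPM in both CA1 groups. A few cells set these oligodendrocyte sums: the highest Ascl4 GC cell had 115459 CPM, the median cell had 44.7 CPM in Ascl4 GC and 238 CPM in EGFP GC, and 7 Ascl4 and 4 EGFP GC cells had at least 3 of the 10 markers at 10 CPM. The 4 Ascl4 GC cells and 1 Ascl4 CA1 cell with more than 12000 genes with a read stand apart from all EGFP cells, none of which passed that number.

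The levels were low and uneven from cell to cell. In every group the median cell had under 2 CPM of each of the 10 genes, and a few cells supplied most of the reads, as the plot of all cells shows. Scaled to exon length, the mean of the 4 groups' pooled levels was highest for Bax (41.7 CPM per kb), followed by Mdm2 (18.8), Ccng1 (12.6), Cdkn1a (11.9), Trp53 (7.86), Bbc3 (4.11), Zmat3 (2.58), Phlda3 (2.06), Trp53inp1 (0.999) and Eda2r (0.013 CPM per kb). This order is that of the means, and places switched between groups. Cdkn1a (25.1 CPM per kb) stood above Mdm2 (23.1) and Ccng1 (16.4) in Ascl4 GC cells and below both in the other 3 groups. In EGFP CA1 cells Phlda3 (7.11 CPM per kb) and Bbc3 (5.01) stood above Trp53 (3.38), while Phlda3 was at 0.0060 CPM per kb in both EGFP GC and Ascl4 CA1 cells.

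**Figure D1:**
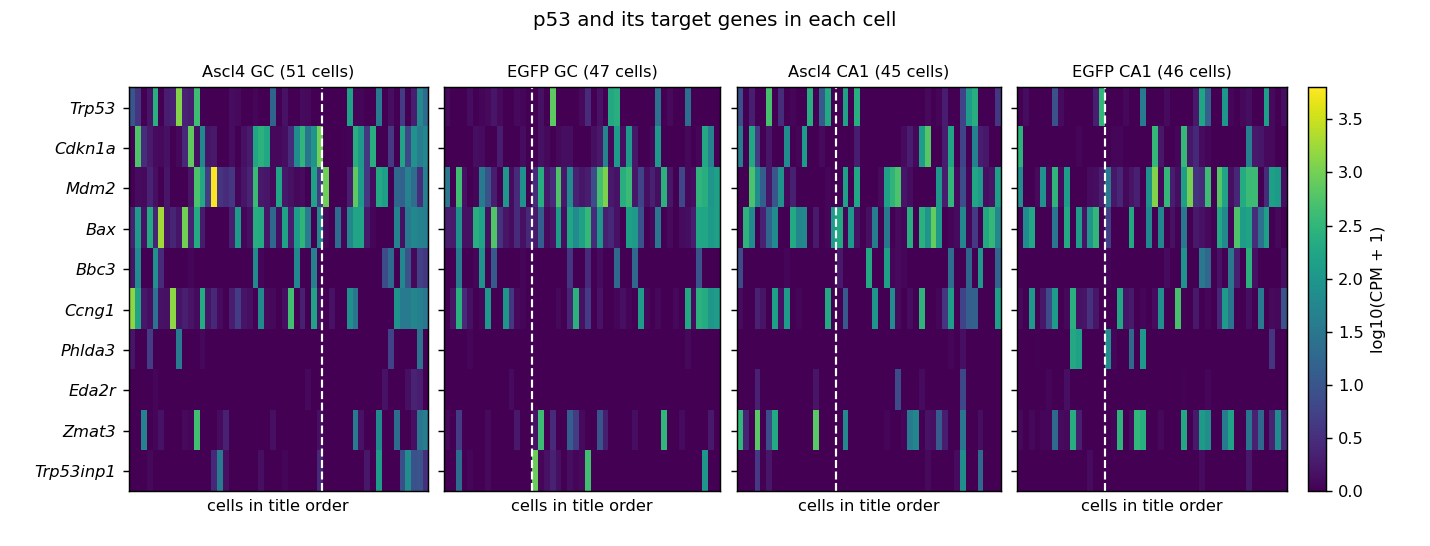
Each column is 1 cell, each row 1 gene, and the colour gives log10 of CPM plus 1. Panels show Ascl4 GC, EGFP GC, Ascl4 CA1 and EGFP CA1 cells in the order of their title numbers, with a dashed line between the 2 runs of numbers. Bright cells are scattered in every panel, and the Cdkn1a row is fuller in Ascl4 GC (18 of 51 cells at 10 CPM or more) than in EGFP GC (6 of 47).

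Trp53 itself (chromosome 11, 69580359 to 69591873, plus strand, GRCm38) was measured first, as the gene of the regulator. Its pooled level was 64.1 CPM (63.2 to 65.1) in Ascl4 GC and 17.6 CPM (17.03 to 18.16) in EGFP GC cells, a log2 ratio of 1.81. The CA1 level of Ascl4 cells was 31.8 CPM (31.02 to 32.53), against 13.7 CPM (13.2 to 14.1) for EGFP cells, a log2 ratio of 1.16. Per cell, Ascl4 GC ran between 0 and 1260 CPM with a median of 0.11, against 0 to 726 CPM with a median of 0 in EGFP GC. In CA1 the range was 0 to 489.5 CPM in Ascl4 and 0 to 330.3 CPM in EGFP cells, with medians of 0. The ranges overlap almost wholly. The share of cells at 10 CPM differed little: 8 of 51 Ascl4 GC (15.7%, 7.02 to 28.6%) and 5 of 47 EGFP GC cells (10.6%, 3.55 to 23.1%), and 8 of 45 Ascl4 CA1 (17.8%, 8.002 to 32.1%) and 6 of 46 EGFP CA1 cells (13.04%, 4.94 to 26.3%). The Ascl4 GC cell at 1260 CPM held 61.7% of that group's Trp53 reads. In the first run of title numbers the GC levels were 101.6 CPM with Ascl4 and 0.15 CPM with EGFP, while in the second run they were 19.2 and 26.4 CPM, so the direction turned round (log2 ratios 6.48 and -0.44). In CA1 the ratio was above 1.5-fold in both runs (1.46 and 0.96), but it was 0.10 once the 13 Ascl4 and 8 EGFP cells dropped by quality control were added back.

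Cdkn1a (chromosome 17, 29090976 to 29100727, plus strand) had a pooled level of 89.2 CPM (88.2 to 90.3) in Ascl4 GC and 16.8 CPM (16.3 to 17.4) in EGFP GC cells, a log2 ratio of 2.34. Ascl4 GC cells spanned 0 to 996 CPM with a median of 0.85, and EGFP GC cells 0 to 197.4 CPM with a median of 0. In all, 11 Ascl4 GC cells and 4 EGFP GC cells had 100 CPM or more, so the groups overlap but the upper end is more populated with Ascl4. At 10 CPM the shares were 35.3% (22.4 to 49.9%) in Ascl4 GC and 12.8% (4.83 to 25.7%) in EGFP GC, a difference of 22.5 percentage points whose 2 intervals overlap. Among the 13681 genes with a mean pooled level of at least 1 CPM, 0.497% had a larger difference in this share, and the median gene had 0.793 points. That ranking was looked up after the Cdkn1a values were seen. With every cell thinned to 500000 reads, a Cdkn1a read was found in 23 of 51 Ascl4 GC cells (45.1%) and 11 of 47 EGFP GC cells (23.4%), against 40 and 23 cells before thinning.

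**Figure D2:**
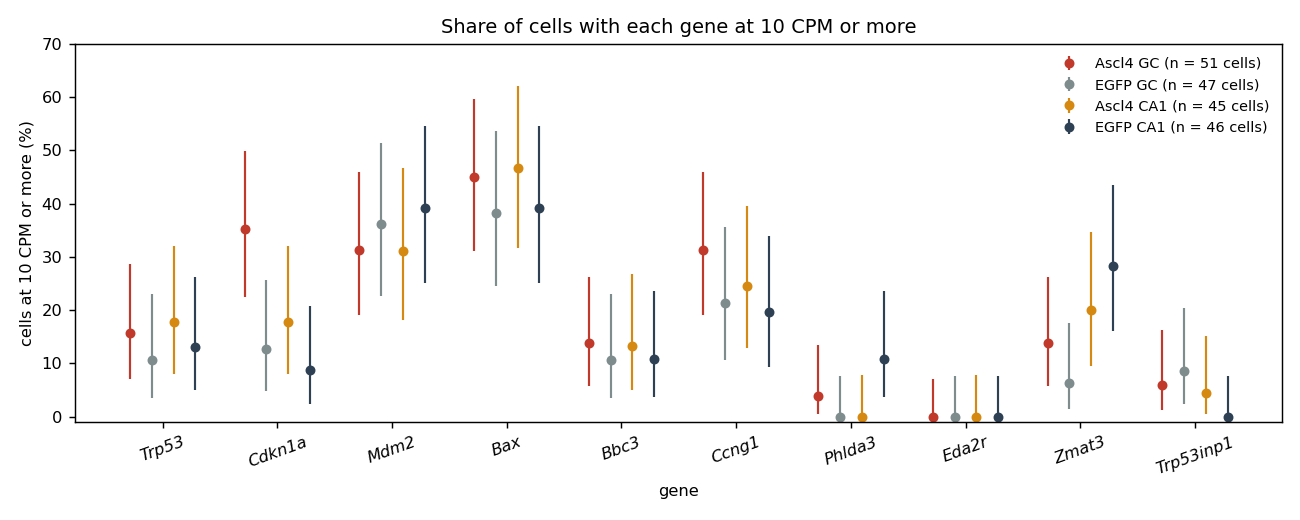
Share of cells in which each gene reached 10 CPM, in percent, for Ascl4 GC, EGFP GC, Ascl4 CA1 and EGFP CA1 cells from left to right at each gene. Points are the share and bars the 95% exact binomial interval, which treats cells as independent draws and leaves out the spread between mice. Cdkn1a in Ascl4 GC (35.3%) against EGFP GC (12.8%) is the widest gap between Ascl4 and EGFP cells of a type.

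The Cdkn1a ratio in GC was at or above 1.5-fold under all 15 other ways of computing it, from 1.08 to 6.71. It held in both runs: 118.03 CPM in Ascl4 and 0.14 CPM in EGFP GC cells in the first, and 54.6 and 25.2 CPM in the second. By shares, the first run had 11 of 33 Ascl4 and 0 of 15 EGFP cells at 10 CPM (a count of 0 that allows up to 20%), and the second 7 of 18 and 6 of 32. The second run's difference of 20.1 points was exceeded by 14.9% of the tested genes and the first run's 33.3 points by 0.292%, so Cdkn1a stood apart by this measure in the first run more than in the second. Even so, a log2 ratio as large as its 2.34 is not rare in these libraries, since 7.08% of the tested genes had a larger one.

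Microglial RNA moved with Cdkn1a in these cells. Of the 17 Ascl4 GC cells with 3 or more microglia markers at 10 CPM, 11 had Cdkn1a at 10 CPM (64.7%, 38.3 to 85.8%), and of the other 34 cells 7 did (20.6%, 8.70 to 37.9%). In EGFP GC it was 1 of 8 (12.5%, 0.316 to 52.7%) and 5 of 39 (12.8%, 4.30 to 27.4%). Among the cells with fewer markers the difference between Ascl4 and EGFP GC was thus 7.77 points in place of 22.5, with pooled levels of 77.1 and 18.5 CPM (log2 ratio 2.00). Cdkn1a was not alone in this split of Ascl4 GC cells. Bax was at 10 CPM in 64.7% of the cells with 3 or more markers and 35.3% of the others, Ccng1 in 52.9% and 20.6%, and Mdm2 in 47.1% and 23.5%. Trp53inp1 had the same share in both (5.88%). The part of microglial RNA in the Cdkn1a result was not tested. Across Ascl4 GC cells the summed microglia level and Cdkn1a had a Spearman coefficient of 0.37, as a description over 51 cells that share libraries and depth, while the summed level of 18 interferon-induced genes and Cdkn1a had one of 0.05 and Ascl4 and Cdkn1a one of 0.09.

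In CA1 Cdkn1a had 30.7 CPM (29.97 to 31.46) in Ascl4 cells and 32.8 CPM (32.1 to 33.6) in EGFP cells, a log2 ratio of -0.09. The share at 10 CPM was 8 of 45 Ascl4 cells (17.8%, 8.002 to 32.1%) and 4 of 46 EGFP cells (8.70%, 2.42 to 20.8%). The highest Ascl4 CA1 cell had 628 CPM and the highest EGFP CA1 cell 355 CPM, and the EGFP cell supplied 66.7% of its group's reads. Without the deepest 10% of cells the log2 ratio was 1.04, and in the first run alone it was 0.59. All 12 of these CA1 cells were among those with 3 or more microglia markers: 8 of 34 Ascl4 and 4 of 25 EGFP cells. Of the CA1 cells with fewer markers, 0 of 11 Ascl4 cells reached 10 CPM, which allows a share of up to 27.3%, and 0 of 21 EGFP cells, which allows up to 14.3%. Their pooled levels were 0.038 and 0.074 CPM. The whole microglia list was present in both CA1 groups, as given above, and its part in the Cdkn1a level of CA1 cells was not tested.

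Mdm2 (chromosome 10, 117688875 to 117710758, minus strand), the ubiquitin ligase that p53 induces and that degrades p53, was the most abundant of the genes per read in both GC groups. It had 117.6 CPM (116.4 to 118.9) in Ascl4 GC and 104.3 CPM (102.97 to 105.7) in EGFP GC cells, a log2 ratio of 0.17. The 10 CPM mark was met by 16 of 51 Ascl4 GC and 17 of 47 EGFP GC cells, so neither measure passed 1.5-fold. The GC ratio was not stable: 4 of the 15 other computations put it at least 1.5-fold higher, and all 15 ran from -0.14 to 2.00. It was 1.02 in the first run and -0.005 in the second. With 3 or more microglia markers, 8 of 17 Ascl4 and 2 of 8 EGFP GC cells met the mark. With fewer markers, 8 of 34 and 15 of 39 did. One Ascl4 GC cell had 5896 CPM, the highest value of any of the 10 genes, and the next cell of that group had 908 CPM. In CA1 Mdm2 was lower with Ascl4, at 62.1 CPM (61.03 to 63.15) against 97.3 CPM (96.1 to 98.5) with EGFP, a log2 ratio of -0.64. It was present at 10 CPM in 14 of 45 Ascl4 CA1 and 18 of 46 EGFP CA1 cells, and 9 of the 15 other computations also put it at least 1.5-fold lower. In the second run alone the CA1 ratio was -0.36, short of 1.5-fold.

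Ccng1 (chromosome 11, 40748552 to 40755311, minus strand) encodes cyclin G1, a p53 target that recruits a phosphatase to Mdm2. Its pooled level was 57.6 CPM in Ascl4 GC and 50.8 CPM in EGFP GC cells (log2 ratio 0.18), and 31.1 CPM in Ascl4 CA1 and 37.3 CPM in EGFP CA1 cells (-0.26). Cells at 10 CPM or more were 16 of 51 in Ascl4 GC and 10 of 47 in EGFP GC, and 11 of 45 in Ascl4 CA1 and 9 of 46 in EGFP CA1. In GC the runs went opposite ways, with a log2 ratio of 1.15 in the first and -1.28 in the second.

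Trp53inp1 (chromosome 4, 11156431 to 11174379, plus strand) encodes a stress protein that p53 induces and that in turn promotes p53 activity. It was lower in Ascl4 GC, at 4.64 CPM (4.40 to 4.89) against 19.8 CPM (19.2 to 20.4) in EGFP GC cells, a log2 ratio of -1.88. Only 3 of 51 Ascl4 GC and 4 of 47 EGFP GC cells reached 10 CPM, and the EGFP GC cell of 852 CPM held 74.5% of that group's reads. In CA1 it had 303 reads over the Ascl4 cells (1.41 CPM) and 4 reads over the EGFP cells (0.016 CPM), a ratio of 88.3 with a counting interval of 34.1 to 326.1. The 2 Ascl4 CA1 cells at 77.98 and 19.04 CPM supplied 96.4% of it, and one of them is the cell with 17883 genes with a read. Without cells of more than 12000 genes the CA1 log2 ratio was 0.59 in place of 1.25.

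The cell death genes came next. Bax (chromosome 7, 45461697 to 45466898, minus strand), which permeabilises mitochondria, was the most often detected of the 10 genes. It reached 10 CPM in 23 of 51 Ascl4 GC (45.1%, 31.1 to 59.7%), 18 of 47 EGFP GC (38.3%, 24.5 to 53.6%), 21 of 45 Ascl4 CA1 (46.7%, 31.7 to 62.1%) and 18 of 46 EGFP CA1 cells (39.1%, 25.1 to 54.6%). Ascl4 cells were thus slightly above EGFP cells in both types, with intervals that overlap. In GC the order depended on microglial RNA. With 3 or more microglia markers, 11 of 17 Ascl4 and 3 of 8 EGFP cells reached 10 CPM. With fewer markers, 12 of 34 Ascl4 (35.3%) and 15 of 39 EGFP cells (38.5%) did. The pooled level was 94.2 CPM in Ascl4 GC and 62.6 CPM in EGFP GC cells, a log2 ratio of 0.58 that lies just under the 1.5-fold line. In CA1 it was 65.2 CPM with Ascl4 and 40.6 CPM with EGFP alone, a log2 ratio of 0.67 that lies just over it. The GC ratio was 1.07 in the first run and -0.43 in the second, and the CA1 ratio 0.37 and 0.86. An annotated gene on the same strand, Gm45808, shares 12.2% of the exon bases of Bax and is not in the table.

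Bbc3 (chromosome 7, 16308393 to 16318205, plus strand) encodes Puma, which releases Bax from its inhibitors. Its pooled level was 8.59 CPM (8.26 to 8.93) in Ascl4 GC and 4.73 CPM (4.45 to 5.03) in EGFP GC cells, a log2 ratio of 0.74. In CA1 it was 10.9 CPM with Ascl4 and 10.6 CPM with EGFP alone (0.03). At 10 CPM it was seen in 7 of 51 Ascl4 GC, 5 of 47 EGFP GC, 6 of 45 Ascl4 CA1 and 5 of 46 EGFP CA1 cells. Among GC cells with fewer than 3 microglia markers the levels were 5.29 CPM with Ascl4 and 5.42 CPM with EGFP. Among such CA1 cells, 0 of 11 with Ascl4 and 1 of 21 with EGFP alone had Bbc3 at 10 CPM.

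Eda2r (chromosome X, 97333840 to 97377216, minus strand), a receptor of the tumour necrosis factor receptor family, was hardly detected. It had 21 reads over the Ascl4 GC and 1 over the EGFP GC cells, and 45 over the Ascl4 CA1 and 5 over the EGFP CA1 cells. No cell reached 10 CPM, which allows shares of up to 5.88% in Ascl4 GC and 6.38% in EGFP GC cells. The ratio of levels was 15.4 in GC with a counting interval of 2.48 to 637, and 10.5 in CA1 with one of 4.18 to 33.9. The highest single cells had 6.52 and 5.72 CPM, both in Ascl4 CA1, and the second of them is again the cell with 17883 genes.

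Phlda3 (chromosome 1, 135766119 to 135769136, plus strand) encodes a p53-induced inhibitor of the kinase Akt. In GC it had 512 reads with Ascl4 (1.75 CPM) and 2 reads with EGFP alone (0.0093 CPM), a ratio without added CPM of 187.8 with a counting interval of 51.7 to 1555, and a log2 ratio of 1.44 with 1 CPM added. In CA1 the order was the other way round, with 2 reads in Ascl4 cells (0.0093 CPM) and 2765 in EGFP cells (11.1 CPM), a log2 ratio of -3.58. These reads lay in few cells. Phlda3 was at 10 CPM or more in 2 of 51 Ascl4 GC and 0 of 47 EGFP GC cells, and in 0 of 45 Ascl4 CA1 and 5 of 46 EGFP CA1 cells, the highest of which had 193.9, 147.4 and 106.7 CPM. The counts of 0 allow shares of up to 6.38% in EGFP GC and 6.67% in Ascl4 CA1 cells. The 2 Ascl4 GC cells had 37.2 and 26.3 CPM and together held 93.8% of the group's reads. Both were among the 8 with Trp53 at 10 CPM, the first being the cell with 1260 CPM of Trp53, and the second had more than 12000 genes with a read. The log2 ratios were 1.69 in the first run and 1.08 in the second in GC, each resting on 1 Ascl4 cell at 10 CPM (of 33 and of 18). In CA1 they were -4.25 and -3.01, with 2 of 15 and 3 of 31 EGFP cells at 10 CPM.

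Zmat3 (chromosome 3, 32334792 to 32366014, minus strand), a p53-induced RNA-binding protein, was lower with Ascl4 by less than 1.5-fold in both types. It had 15.3 CPM in Ascl4 GC and 21.5 CPM in EGFP GC cells (log2 ratio -0.47), and 34.8 CPM in Ascl4 CA1 and 46.4 CPM in EGFP CA1 cells (-0.41). The shares at 10 CPM were 7 of 51 and 3 of 47 in Ascl4 and EGFP GC, and 9 of 45 and 13 of 46 in Ascl4 and EGFP CA1 cells. In GC the share was thus higher with Ascl4 where the summed level was lower, and single cells set both levels: 1 Ascl4 cell of 452 CPM carried 68.8% of the Ascl4 reads, and 2 EGFP cells of 406 and 318 CPM carried 97.3% of the EGFP reads. Without its highest cell, the mean of per-cell CPM was 4.83 in place of 13.6 in Ascl4 GC and 7.68 in place of 16.2 in EGFP GC. The runs went opposite ways in both types, at 4.00 and -1.74 in GC and 2.32 and -2.85 in CA1.

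Counted together, 4 of the 10 genes were at least 1.5-fold higher in Ascl4 than in EGFP GC cells (Trp53, Cdkn1a, Bbc3 and Phlda3), where 29.1% of the 13681 tested genes were. Trp53inp1 alone was lower, where 29.9% of the tested genes were. The remaining 5 lay between. The median log2 ratio of the 10 genes was 0.38 and that of all tested genes 0.00. Of the 10, 6 had opposite signs in the 2 runs, and 2, Cdkn1a and Phlda3, were at least 1.5-fold higher in both, Phlda3 through 1 cell in each. The shares of all tested genes that did so were not computed, so these run counts say nothing about the set. The minimum of 1 CPM as a mean over the 4 groups was passed by 9 of the 10 genes, all but Eda2r.

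In CA1 cells 3 genes were higher with Ascl4 (Trp53, Bax and Trp53inp1), against 28.4% of all tested genes, and 2 were lower (Mdm2 and Phlda3), against 25.9%. The median was -0.03 for the 10 genes and 0.02 for all. Trp53 was higher in both runs and Phlda3 lower in both, again without the shares of all tested genes that did so. Since about 3 in 10 of all tested genes passed 1.5-fold in each direction, these counts show neither a rise nor a fall of the set as a whole, and its genes stood on both sides of 0.

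**Figure D3:**
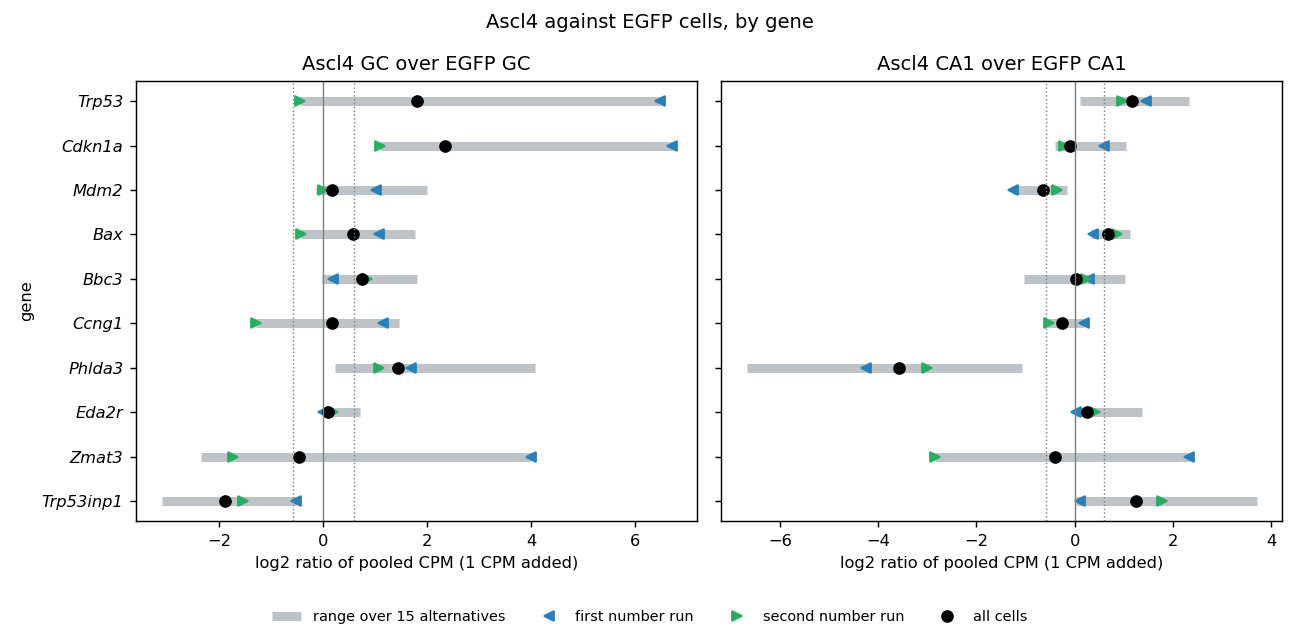
Log2 ratio of pooled CPM (1 CPM added) of Ascl4 over EGFP cells, GC on the left and CA1 on the right, 1 row per gene. Black points use all cells, triangles each run of title numbers, grey bars span the 15 other computations and dotted lines mark 1.5-fold. The Cdkn1a bar in GC lies wholly above 1.5-fold (1.08 to 6.71) and the Phlda3 bar in CA1 wholly below (-6.68 to -1.07).

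EGFP cells of the 2 types also differed in these genes, which sets the baseline for the comparisons above and shares the EGFP cells with them. Among them, 4 genes were at least 1.5-fold higher in EGFP CA1 than in EGFP GC cells, where 33.5% of tested genes were: Phlda3 (11.1 against 0.0093 CPM), Zmat3 (46.4 against 21.5 CPM), Bbc3 (10.6 against 4.73 CPM) and Cdkn1a (32.8 against 16.8 CPM). Another 2 were lower, where 26.6% of tested genes were: Trp53inp1 (0.016 against 19.8 CPM, log2 ratio -4.36) and Bax (40.6 against 62.6 CPM, -0.61). Zmat3 also reached 10 CPM more often, in 13 of 46 EGFP CA1 (28.3%, 15.99 to 43.5%) and 3 of 47 EGFP GC cells (6.38%, 1.34 to 17.5%), and it was higher in EGFP CA1 cells in both runs. Among cells with fewer than 3 microglia markers the order was the other way round for Cdkn1a, at 0.074 CPM in EGFP CA1 and 18.5 CPM in EGFP GC cells, and for Bbc3, at 1.11 and 5.42 CPM (log2 ratio -1.61). Over those cells 1 of the 10 genes was higher and 6 were lower in EGFP CA1. The share of all tested genes past 1.5-fold was not computed for those cells, so these counts say nothing about the set. Bbc3 was also lower in the first run, at 0 CPM in EGFP CA1 and 11.1 CPM in EGFP GC cells, and without the deepest 10% of cells the Cdkn1a log2 ratio was -0.010.

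Close to 5 in 10 cells of each group held 2 or more of the genes at 10 CPM: 23 of 51 Ascl4 GC (45.1%), 21 of 47 EGFP GC (44.7%), 23 of 45 Ascl4 CA1 (51.1%) and 24 of 46 EGFP CA1 cells (52.2%). The number of the 10 genes at 10 CPM in a cell had a median of 1 and a maximum of 6 in Ascl4 GC, of 1 and 5 in EGFP GC, of 2 and 4 in Ascl4 CA1 and of 2 and 5 in EGFP CA1 cells. None of the 10 reached 10 CPM in 9 of 51 Ascl4 GC cells (17.6%, 8.40 to 30.9%) and 16 of 47 EGFP GC cells (34.04%, 20.9 to 49.3%), and in 5 of 45 Ascl4 CA1 (11.1%, 3.71 to 24.1%) and 10 of 46 EGFP CA1 cells (21.7%, 10.9 to 36.4%). At the other end, 12 Ascl4 GC and 3 EGFP GC cells had 4 or more. The 4 Ascl4 GC cells with more than 12000 genes are among those 12, with 4, 4, 6 and 6 of the 10 genes. Ascl4 GC cells with 3 or more microglia markers had a median of 4 of the 10 genes and the other Ascl4 GC cells a median of 1, while both kinds of EGFP GC cells had a median of 1. The part of either kind of cell in these numbers was not tested. Such numbers were not computed for other sets of 10 genes, so they show nothing particular to the p53 genes.

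**Figure D4:**
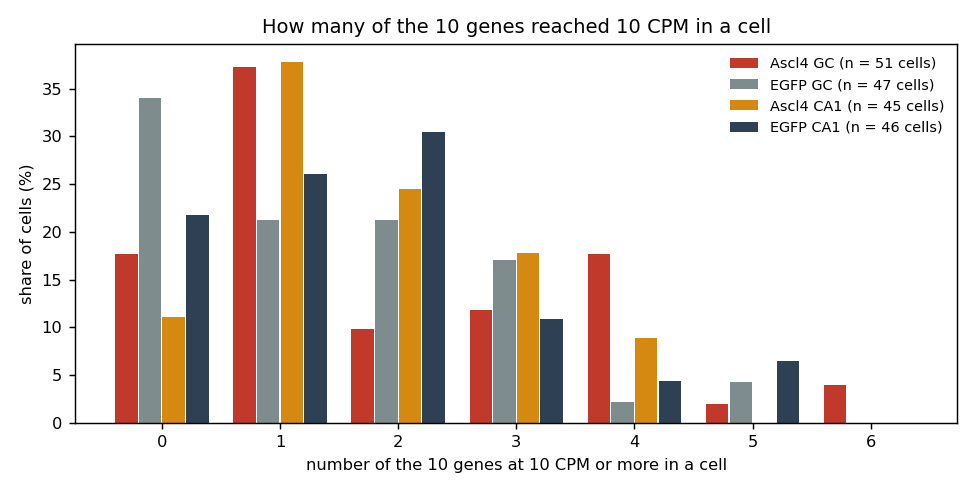
Number of the 10 genes at 10 CPM or more in a cell, against the share of cells in percent, for Ascl4 GC, EGFP GC, Ascl4 CA1 and EGFP CA1 cells. EGFP GC has the tallest bar at 0 (34.04%), and Ascl4 GC has more cells with 4 or more than EGFP GC (12 against 3 cells). Such counts were not made for other sets of genes.

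How often a target was found beside Trp53 varied between genes. Over all cells of the 4 groups, Trp53 reached 10 CPM in 27 and Cdkn1a in 36, and both did in 5 cells, which is 18.5% of the Trp53 cells and 13.9% of the Cdkn1a cells. Of the cells without Trp53, 19.1% had Cdkn1a. Ccng1 was at 10 CPM in 10 of the 27 cells with Trp53 (37.04%) and 22.2% of those without, Zmat3 in 9 (33.3%) and 14.2%, Bbc3 in 5 (18.5%) and 11.1%, and Phlda3 in 3 (11.1%) and 2.47%. Bax went the other way (33.3% and 43.8%), as did Mdm2 (29.6% and 35.2%) and Trp53inp1 (3.70% and 4.94%). In Ascl4 GC, 2 of the 8 cells with Trp53 had Cdkn1a, as did 16 of the 43 without, while Bax was in 5 of the 8 and 18 of the 43, Ccng1 in 4 and 12, and Phlda3 in 2 and 0. In Ascl4 CA1, Ccng1 was in 4 of the 8 cells with Trp53 and 7 of the 37 without. These cells are few, and the pooled shares mix groups. The 2 Ascl4 GC cells with Trp53 and Cdkn1a had 14695 and 12057 genes with a read, and each also had Bax, Ccng1 and Zmat3. Across Ascl4 GC cells, genes with a read and the number of the 10 genes at 10 CPM had a Spearman coefficient of 0.49. The part of such cells in these pairs was not tested. The most frequent pairs were those of the most often detected genes: Mdm2 with Bax in 31 cells, Bax with Ccng1 in 24 and Cdkn1a with Bax in 22. Trp53 and Zmat3 met in 4 of the 8 Ascl4 GC cells with Trp53 and 3 of the 43 without, and in 4 of the 6 EGFP CA1 cells with Trp53 and 9 of the 40 without. In Ascl4 CA1 cells they met in 1 of 8 with Trp53 and 8 of 37 without, so the direction differed between groups.

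Genes whose levels varied most like those of the 3 most widely detected of the 10 were ranked by Spearman coefficients over the cells of each group, averaged over the 4 groups, among 5183 genes. The 3 highest were Ube2j2 (0.39), Ankrd13a (0.34) and Rapgef6 (0.33) for Mdm2, Coq8a (0.35), Use1 (0.32) and Klhl2 (0.32) for Bax, and Ddb1 (0.32), Brms1l (0.31) and Gspt1 (0.31) for Ccng1. These are weak coefficients over cells that share depth. Only genes with a read in at least 50% of the cells of every group were ranked. Of the 10 genes Mdm2 and Bax alone passed that filter, so the others could not have been among those named.

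Other genes of the pathway were taken from lists by role, and their counts are to be read beside the shares of all tested genes, 29.1% higher and 29.9% lower in GC and 28.4% higher and 25.9% lower in CA1. Those shares cover genes with a mean of at least 1 CPM, while the counts cover every list gene. The minimum was passed by 15 of 17 control genes, 16 of 18 further targets and 7 of 8 activity or stress targets. It was passed by 16 of 18 Bcl2 family and caspase genes and 15 of 20 cell cycle genes. Of 17 genes that control p53, 4 were higher and 3 lower in Ascl4 than EGFP GC cells, with a median log2 ratio of 0.00, and 4 were higher and 4 lower in CA1 (0.10). Hipk2, a kinase that phosphorylates p53, had 27.6 CPM in Ascl4 GC and 1.68 CPM in EGFP GC cells, but 17.1 CPM in Ascl4 CA1 and 34.3 CPM in EGFP CA1 cells. Mdm4, the Mdm2 relative that blocks p53, went the same ways, at 125.6 and 51.0 CPM in Ascl4 and EGFP GC and 27.4 and 55.3 CPM in Ascl4 and EGFP CA1 cells. Ppm1d, a p53-induced phosphatase that ends the response, was lower in GC (49.6 CPM with Ascl4, 193.5 CPM with EGFP). Sirt1, a deacetylase of p53, had 21.98 CPM in Ascl4 CA1 and 5.72 CPM in EGFP CA1 cells, in 6 of 45 and 2 of 46 cells. Usp7, which removes ubiquitin from p53 and Mdm2, was higher in CA1 too (215.2 CPM with Ascl4, 90.1 CPM with EGFP).

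Of 18 further p53 targets, 5 were higher and 6 lower with Ascl4 in GC (median -0.05), and 3 were higher and 6 lower in CA1 (0.14), against 29.1% and 29.9% of all tested genes in GC and 28.4% and 25.9% in CA1. Rps27l, a ribosomal protein paralogue induced by p53, had 51.9 CPM in Ascl4 GC and 27.2 CPM in EGFP GC, and 24 of 51 Ascl4 against 11 of 47 EGFP GC cells passed 10 CPM. Apaf1, the scaffold of the apoptosome, was lower, at 24.3 CPM in Ascl4 GC and 148.7 CPM in EGFP GC, in 3 of 51 and 17 of 47 cells. Psrc1 had 0.031 CPM in Ascl4 GC and 44.5 CPM in EGFP GC, in 0 of 51 and 8 of 47 cells. Pidd1, which had 93.04 CPM in Ascl4 GC and 0.037 CPM in EGFP GC cells, rested on 1 cell. In CA1, 14 of 45 Ascl4 and 0 of 46 EGFP cells had Trp53i11 at 10 CPM (58.1 and 0.076 CPM), while Sesn1, a p53-induced stress protein, had 39.3 CPM with Ascl4 and 120.9 CPM with EGFP. Xpc, a DNA damage sensor of nucleotide excision repair, had 14.3 CPM in Ascl4 CA1 and 37.1 CPM in EGFP CA1 cells, in 3 of 45 and 4 of 46 cells.

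The 8 p53 targets that neuronal activity or stress also induces had 2 higher and 2 lower with Ascl4 in GC (median -0.15) and 3 higher and 1 lower in CA1 (0.42), against the same shares of all tested genes (29.1% and 29.9% in GC, 28.4% and 25.9% in CA1). Plk2, a polo-like kinase of synapses, was abundant, at 1320 CPM in Ascl4 GC and 3211 CPM in EGFP GC cells. Its relative Plk3 had 280.3 CPM in Ascl4 CA1 and 38.6 CPM in EGFP CA1 cells, in 25 of 45 and 10 of 46 cells. Klf4, a zinc finger transcription factor, had 68.3 CPM in Ascl4 GC and 31.9 CPM in EGFP GC, and 37.6 CPM in Ascl4 CA1 and 12.4 CPM in EGFP CA1 cells.

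Among 18 Bcl2 family and caspase genes, 1 was higher and 8 lower with Ascl4 in GC (median -0.47), and 7 were higher and 4 lower in CA1 (0.08), against 29.1% and 29.9% of all tested genes in GC and 28.4% and 25.9% in CA1. Hrk, a neuronal death activator, had 0.19 CPM in Ascl4 GC and 34.7 CPM in EGFP GC, in 0 of 51 and 7 of 47 cells, and 1.22 CPM in Ascl4 CA1 and 7.08 CPM in EGFP CA1 cells. Mcl1, a survival member, had 42.4 CPM in Ascl4 GC and 99.9 CPM in EGFP GC. Of the survival genes in CA1, Bcl2l2 had 7.86 CPM with Ascl4 and 34.3 CPM with EGFP, and Bcl2 had 57.2 CPM with Ascl4 and 3.11 CPM with EGFP, though Bcl2 reached 10 CPM in 4 cells of each group. Bcl2l1 had 107.2 CPM in Ascl4 CA1 and 61.1 CPM in EGFP CA1 cells.

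Among 20 genes of CDK inhibitors and the cell cycle, 5 were higher and 6 lower with Ascl4 in GC (median 0.03), and 7 were higher and 3 lower in CA1 (0.43), against 29.1% and 29.9% of all tested genes in GC and 28.4% and 25.9% in CA1. Cdkn2d, an inhibitor of Cdk4 and Cdk6, was higher in Ascl4 GC, at 94.8 CPM against 30.1 CPM in EGFP GC, in 15 of 51 and 9 of 47 cells. Cdk4 had 186.9 CPM in Ascl4 GC and 118.6 CPM in EGFP GC cells, while Cdk6 had 0.17 and 39.9 CPM in Ascl4 and EGFP GC, in 0 of 51 and 7 of 47 cells. Ccnd1, encoding cyclin D1, had 22.3 CPM in Ascl4 GC and 40.6 CPM in EGFP GC, and 31.4 CPM in Ascl4 CA1 and 58.5 CPM in EGFP CA1 cells. Rb1, the pocket protein that cyclin D1 kinases phosphorylate, had 10.9 CPM in Ascl4 CA1 and 20.3 CPM in EGFP CA1 cells. Cdkn1b, the p27 relative of Cdkn1a, had 31.3 CPM in Ascl4 CA1 and 8.07 CPM in EGFP CA1, but reached 10 CPM in 4 of 45 and 7 of 46 cells. Pcna, the sliding clamp of DNA replication and repair, had 93.4 CPM in Ascl4 CA1 and 44.3 CPM in EGFP CA1 cells. An interferon-induced list of 18 genes is shown as well, and it was chosen with its rise in these cells already known, so its values describe that choice and support no contrast with the p53 lists. All 18 were at least 1.5-fold higher with Ascl4 in GC (median log2 ratio 4.01), as were 17 of 18 in CA1 (3.23). In GC the highest ratios were those of Ifit3 (144.2 CPM with Ascl4, 0.16 CPM with EGFP) and Ifit1 (163.7 and 0.41 CPM), and in CA1 those of Ifi27l2a (66.7 and 0.024 CPM) and Oasl2 (57.8 and 0.044 CPM).

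**Figure D5:**
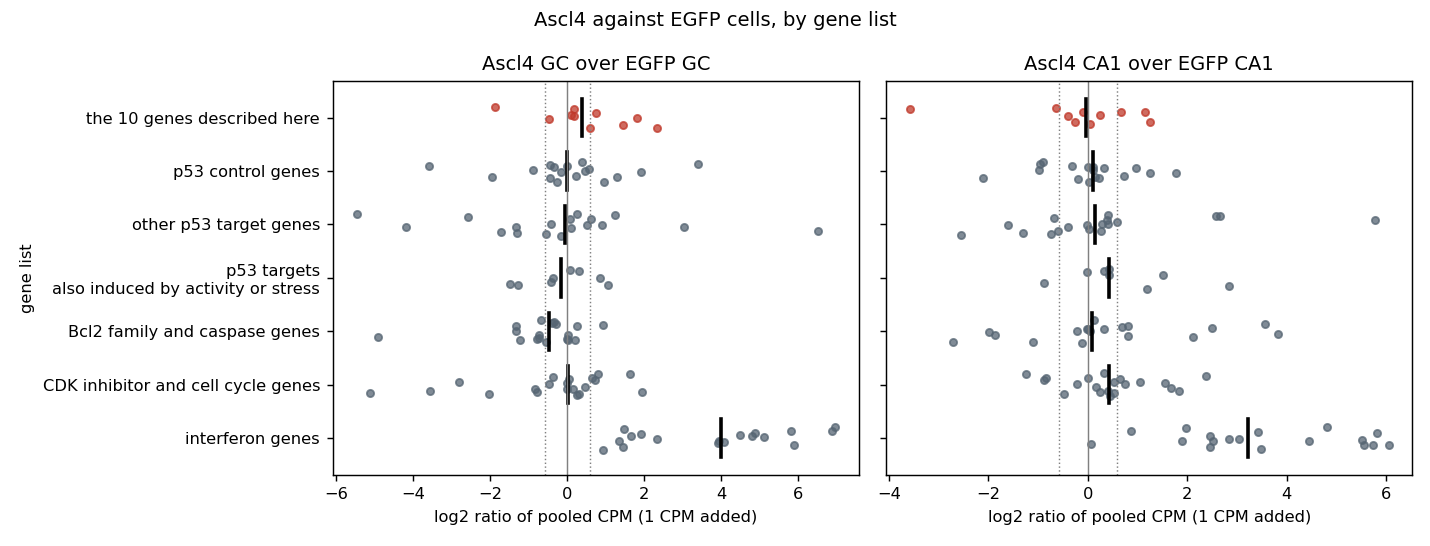
Log2 ratio of pooled CPM (1 CPM added) of Ascl4 over EGFP cells for each gene of each list, GC on the left and CA1 on the right. Each point is 1 gene, black bars are medians and dotted lines mark 1.5-fold. The p53 lists have genes on both sides of 0, with medians from -0.15 to 0.42, and the interferon genes, a list chosen with its rise known, have medians of 4.01 and 3.23.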

How the data were processed

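Patch-pipette RNA-seq of 228 neurons was used, of which the authors' quality-controlled count table held 189. The series text states 52, 53, 51 and 48 cells passing for Ascl4 GC, EGFP GC, Ascl4 CA1 and EGFP CA1, and the table held 51, 47, 45 and 46. Per the submitters' processing notes, STAR, HTSeq and GRCm38.p4 were used, and no version, strand setting or filter is named in the labels. The authors deposited raw counts and a normalized signal, which within each cell was proportional to the counts. Spike-in rows (92, holding 4 reads) were left out. From the counts, CPM, pooled CPM and log2 ratios were computed. The 10 genes and the 6 lists were chosen with earlier results of these data known. Named list genes were up to 2 per list and direction in each Ascl4 comparison, by largest ratio past 1.5-fold among those with a mean of at least 10 CPM over the 4 groups. Groups count as 1 sample each, so no test was made. The title numbers form 2 runs (no label calls them batches), holding 33 and 18 Ascl4 GC, 15 and 32 EGFP GC, 17 and 28 Ascl4 CA1, and 15 and 31 EGFP CA1 cells. Positions and exon lengths came from GENCODE annotation of GRCm38 and start windows from RefSeq. In all, 15 alternatives were tried, and the splits of cell shares by microglia markers and by run were added after seeing the data. The code was tested on simulated data. edgeR 4.0.16 and DESeq2 1.42.0 (R 4.3.3) gave scaling factors only, and the rest used scipy 1.17.1, pandas 2.3.3 and numpy 2.4.6 under Python 3.11.15, with plots from matplotlib 3.10.9.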

Additional observations from a re-analysis of the deposited data

Results flagged for a closer look

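Phlda3 and Trp53inp1 differed between the cell types in the direction of their Ascl4 ratios, in both cases opposite in sign and past 1.5-fold in each. The Phlda3 log2 ratio of Ascl4 over EGFP cells was 1.44 in GC and -3.58 in CA1, a difference of 5.03. The Trp53inp1 log2 ratio was -1.88 in GC and 1.25 in CA1, a difference of -3.13. Neither difference was tested, since each group is 1 sample, and both genes reached 10 CPM in at most 5 cells of a group.

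The 39 cells that the authors' quality control dropped also held reads of these genes. The values given here are a selection, and the genes not named lay on either side of the dropped EGFP cells of the same type. Trp53 was at 49.2 CPM in the 5 dropped Ascl4 GC cells, where 1 cell held 99.4% of its reads, and 11.4 CPM in the 13 dropped EGFP GC cells. Cdkn1a was at 112.1 CPM in the same Ascl4 cells and 1.54 CPM in the same EGFP cells, and 1 cell held 99.7% of those Ascl4 reads. Mdm2 was at 231.8 CPM in the 13 dropped Ascl4 CA1 cells and 0.24 CPM in the 8 dropped EGFP CA1 cells. Bbc3 was at 88.001 CPM and 0.081 CPM in the same Ascl4 and EGFP CA1 cells, with 1 Ascl4 cell holding all its reads, and Ccng1 was at 139.97 CPM and 0.24 CPM. In dropped CA1 cells Trp53 and Cdkn1a went the other way, at 0.12 and 43.3 CPM with Ascl4 and at 306.8 and 228.8 CPM with EGFP, where 1 cell again held over 99.8% of the EGFP reads of each. These values were not tested.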

How the results depend on the processing

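Each count of genes past 1.5-fold was recomputed under 15 alternatives. The share of all tested genes past 1.5-fold was not recomputed under them, so these counts show no rise or fall of the set. The 4 genes higher with Ascl4 in GC became 7 with means of per-cell CPM, with the first run alone or with thinned cells, and 2 with 10 CPM added. The 1 lower became 0 in the first run, 3 in the second and 2 without cells with 3 or more microglia markers. In CA1 the 3 higher became 1 with 10 CPM added. The 2 lower became 1 with 10 CPM added, without the deepest 10% of cells, with dropped cells included or with the authors' signal. For EGFP CA1 over GC, the 4 higher became 2 with the authors' signal and 1 without cells with microglia markers. The 2 lower became 1 with means of per-cell CPM, 10 CPM added or thinned cells, and 6 without cells with microglia markers. Sign changes of single genes in which either value was past 1.5-fold were as follows, on the log2 scale. In the first run these were Zmat3 (4.00 in GC, 2.32 in CA1), Cdkn1a in CA1 (0.59), and Trp53 (3.51) and Bbc3 (-3.60) in EGFP CA1 over GC. In the second run they were Trp53 (-0.44) and Ccng1 (-1.28) in GC. Without the deepest cells they were Zmat3 in GC (0.66), Cdkn1a in CA1 (1.04) and Cdkn1a in EGFP CA1 over GC (-0.010). Without cells with microglia markers they were Bbc3 in GC (-0.031), in CA1 (-1.02) and in EGFP CA1 over GC (-1.61), and Cdkn1a in EGFP CA1 over GC (-4.18). With dropped cells it was Trp53 in EGFP CA1 over GC (0.65). Another 22 sign changes lay within 1.5-fold on both sides, with alternative values from -0.43 (Bax in GC, second run) to 0.50 (Cdkn1a in CA1, thinned cells). They concerned Mdm2 in GC (2) and in EGFP CA1 over GC (4), Ccng1 in CA1 (3) and in EGFP CA1 over GC (2), Cdkn1a in CA1 (4), Zmat3 in CA1 (3), Bbc3 in CA1 (2), Bax in GC (1) and Eda2r in GC (1). The causes were not tested. Past 1.5-fold in the same direction under all 15 were Cdkn1a in GC, Phlda3 in CA1, and Phlda3 and Trp53inp1 in EGFP CA1 over GC. Without an expression filter 38.5% of genes in GC passed 1.5-fold in either direction in place of 59.1%, and 39.3% in place of 60.1% for EGFP CA1 over GC. The authors' signal moved the median of all genes in EGFP CA1 over GC to -0.07, against 0.06. No paired analysis was possible because the groups share no title numbers.

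With 1 sample a group, no result could be set against a spread between mice. Several values rest on 1 or 2 cells, and a cell's depth sets how few copies could be read: a group's floor of 3 reads corresponds to 0.010 CPM in Ascl4 GC and 0.014 CPM in EGFP GC cells. Cdkn1a shares 273 exon bases (7.68%) with an annotated gene on the opposite strand, AC167363.2, and the strand setting of the counting is not given in the sources used here.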
